A study of Mus musculus with 16 samples.

Results

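The mouse Rab GTPases were followed in 2 lines of KM lung tumour cells, as the mRNAs that carry ribosomes and as the mRNAs present in the cytoplasm. Members were the genes whose symbol is Rab followed by a number and at most 1 letter, which gave 59 of the 20622 genes in the total RNA tables. Genes such as the Rab11 family-interacting proteins or the Rab GTPase-activating proteins, which bear Rab in a longer symbol, were not members. KM cells were grown from lung tumours of 1 male mouse with Rosa26LSL-MYC/LSL-MYC, in which a Cre adenovirus driven by the surfactant protein C promoter had switched on extra MYC. Both lines share the genotype of that mouse and both went through lentiviral CRISPR transduction and puromycin selection. KMNTC received a non-targeting guide, and KM4A2cr a guide to the coding region of Eif4a2, the RNA helicase of the translation machinery that the study deletes. KM4A2cr is a pool of clones picked for the loss of eIF4A2 protein, so the line stands for few founder cells of 1 animal. Cells were untreated and harvested near confluence in independent experiments, done on different days, which give the 4 replicates of each line. Each lysate gave a library of ribosome-protected fragments (RPFs) and a library of total cytoplasmic RNA, which makes 16 libraries in groups of 4.

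Rab GTPases are small membrane-bound switches. Bound to GTP, each marks a particular membrane of the cell and recruits effectors there, such as coats, motors, tethers and fusion factors, and bound to GDP it is drawn off the membrane and recycled. Exchange factors load them with GTP, GTPase-activating proteins end the signal, and escort and prenylation enzymes attach the lipids that hold them on the bilayer. In secretory lung epithelium they carry cargo from the endoplasmic reticulum (ER) through the Golgi to the surface, and return receptors and integrins through endosomes to the surface or to lysosomes.

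Library totals ranged from 5703271 to 9621848 RPF counts in KMNTC and from 4512403 to 8515151 in KM4A2cr, and total RNA from 5580726 to 9312622 and from 5350919 to 7213596 counts. Replicate 4 was the shallowest in all 4 groups. RPFs of Eif4a2 fell in KM4A2cr (log2 fold change -0.49, SE 0.15, adjusted p = 0.0941 in the quasi-likelihood test of edgeR, lower in 4 of 4 pairs). The change in its total RNA was -0.18 (adjusted p = 0.504 by edgeR). Eif4a2 lies on chromosome 16, where the median change was -0.12 over 324 genes in RPFs and -0.13 over 342 genes in total RNA. The part of the chromosome in the Eif4a2 values was not tested. In replicate 4, RPFs of Eif4a2 stood at 389 CPM, counts scaled to library size, in KMNTC and 346 CPM in KM4A2cr. They were at most 122 CPM in the other replicates. These counts do not show the reading frame and so do not measure the loss of the protein. All 7 epithelial markers were above a mean of 1 TPM, a level scaled to transcript length and library size. Of 9 alveolar type II markers only Abca3 and Lamp3 exceeded a mean of 1 TPM. The surfactant genes Sftpc and Sftpb of that list were at 0 in all total RNA libraries. The paper lists surfactant protein C, the product of Sftpc, among the markers used to assess the identity of its KM cells. The summed epithelial markers ran from 4784 to 5499 TPM in KMNTC and from 4515 to 7093 TPM in KM4A2cr, and the alveolar type II sum from 29.4 to 35.8 TPM and from 37.5 to 49.2 TPM. Fibroblast, immune and endothelial markers above a mean of 1 TPM numbered 1 of 8, 1 of 7 and 0 of 5. The immune one was Cd68, with a mean of 77.7 TPM. The immune sum ran from 33.4 to 221 TPM in KMNTC and from 37.7 to 155 TPM in KM4A2cr.

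The KM cells carried mRNA for most of the family, and a handful of members made up much of it. TPM is per transcript length, so it can be set side by side between genes. It averaged above 100 TPM in KMNTC for 5 members, between 10 and 100 TPM for 23, between 1 and 10 TPM for 16 and below 1 TPM for 15. Rab7, which drives fusion at late endosomes and lysosomes, led with 352 TPM ± 95.1 (SD, n = 4). It was followed by Rab10, which carries cargo from the Golgi and endosomes to the plasma membrane (175 TPM ± 44.1), by Rab33b of the Golgi and of autophagosome formation (168 TPM ± 49.1) and by the epithelial recycling member Rab25 (136 TPM ± 29.7). Rab2a, which acts between the ER and the Golgi, had 129 TPM ± 40.5. The 3 highest members held 32.5% of the summed member TPM in KMNTC, the 5 highest 44.9% and the 10 highest 64.1%.

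The order of the levels was resolved at only a few steps. Of 43 neighbouring pairs in the KMNTC order, 41 overlapped in their ranges over 4 libraries, and the ranges were separate only between Rab7 and Rab10 and between Rab9 and Rab34. At the scarce end, 15 members averaged below 1 TPM. Among them Rab6b and Rab39b, known from neurons, averaged 0.095 and 0.0525 TPM in KMNTC, and Rab44, a large member of granulocytes and mast cells, had 0 counts in every total RNA library. Rab38 acts on lysosome-related organelles, including the lamellar bodies of alveolar type II cells. It was present at 11.9 TPM ± 4.97 in KMNTC and 8.19 TPM ± 5.98 in KM4A2cr. Its total RNA was lower in KM4A2cr in 3 of 4 pairs and did not pass (log2 fold change -0.35, SE 0.22, adjusted p = 0.453 by edgeR). Its relative Rab32 averaged 0.343 TPM in KMNTC.

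**Figure D1:**
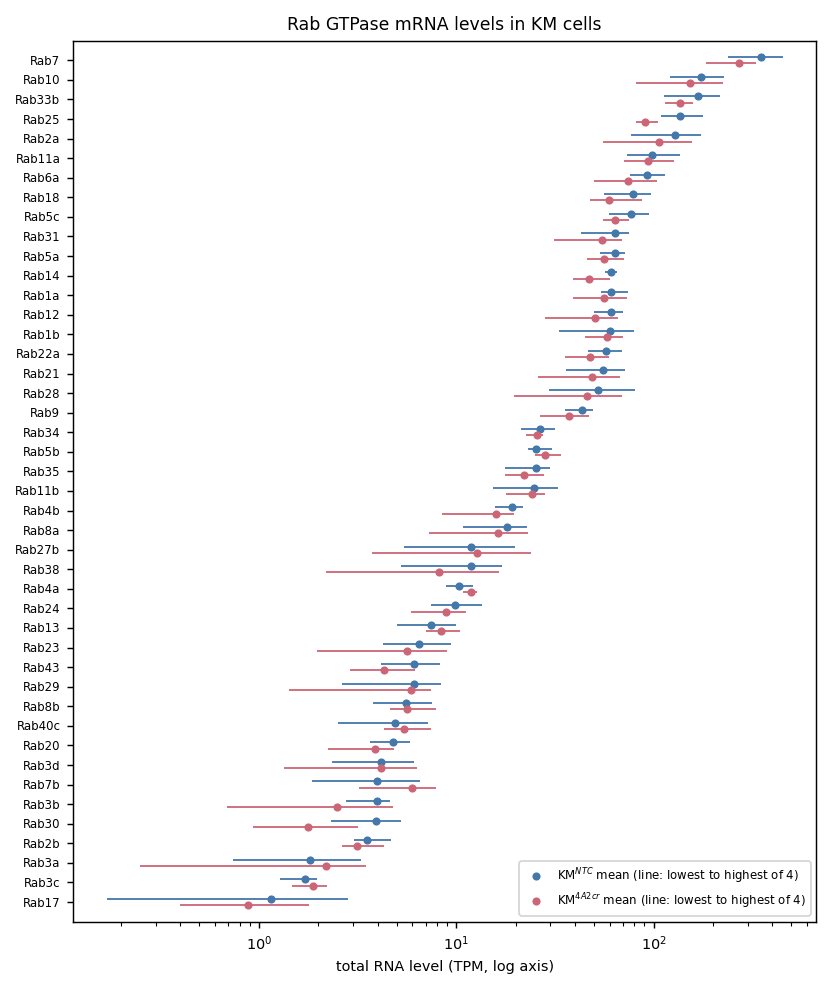
Total RNA level (TPM, log axis) of the 44 Rab genes with a mean of at least 1 TPM in KMNTC, with points for the mean and lines from the lowest to the highest of 4 libraries, KMNTC in blue and KM4A2cr in red. Rab7 lies apart at the top with 352 TPM in KMNTC and 272 TPM in KM4A2cr, and the lines of most neighbours overlap.

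Within subfamilies 1 paralogue often carried nearly all of the mRNA. Rab2a made up 97.2% ± 0.79 of the Rab2 TPM in KMNTC and Rab6a 99.9% ± 0.13 of the Rab6 TPM. Rab7 made up 98.8% ± 0.97 of Rab7 and Rab7b, and Rab11a 79.8% ± 5.19 of the Rab11a and Rab11b pair. Rab1a and Rab1b, which serve the step from the ER to the Golgi, were near parity, with Rab1a at 51.1% ± 7.43.

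The share within its subfamily was higher in KM4A2cr in 4 of 4 pairs for Rab2b, Rab4a, Rab5b, Rab7b, Rab11b and Rab27a. Rab5b, 1 of 3 paralogues for the fusion of early endosomes, had 15.4% ± 1.55 of the Rab5 TPM in KMNTC (range 14.1 to 17.6%) and 19.2% ± 0.64 in KM4A2cr (range 18.4 to 19.8%). It was the 1 of these 6 whose ranges did not overlap. Rab4a, which serves fast recycling, held 34.9% ± 3.77 of the Rab4 TPM in KMNTC and 44.0% ± 10.7 in KM4A2cr, higher in 4 of 4 pairs with overlapping ranges. Rab3b held 35.2% ± 10.8 of the Rab3 TPM in KMNTC and 22.3% ± 14.0 in KM4A2cr, higher in 0 of 4 pairs. These shares are descriptions and carry no test.

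For 59 members, 52 had an RPF row, and 41 passed the filter on low counts in RPFs and 44 in total RNA. The 18 without an RPF test comprised 15 that were also too scarce in total RNA and 3, Rab29, Rab27a and Rab3c, that were tested in total RNA alone. The highest summed RPF count over 8 libraries among untested members was 65, and the lowest among tested ones 86. A member that is scarce in both lines is therefore outside the counts below that use this filter and all 4 replicates. With no filter scarce members were counted too, and Rab3c was tested in RPFs without replicate 4.

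Most Rab members moved by small amounts in RPFs, as did most genes, and the family was not tested against all genes. With replicate and cell line as terms in edgeR, 2 of the 41 tested members passed an adjusted p of 0.1 in RPFs, against a background of 10.3% of all 10291 genes tested, with Rab4a higher (background 6.60%) and Rab3b lower (background 3.72%). The median log2 fold change was 0.08 over the members and -0.01 over all genes, and 30 of 41 members (73.2%) moved by less than 0.3 on the log2 scale, as did 64.5% of all genes. An unadjusted p under 0.05 was reached by 6 members, against 23.4% of all genes. RPFs were higher in 4 of 4 pairs for 8 members (background 14.1%) and lower in 4 of 4 pairs for 3 (background 16.0%).

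Most members also moved by small amounts as mRNAs, as did most genes. In total RNA 1 of 44 tested members passed, Rab30, which was lower, against 6.13% of all 10880 genes called in either direction, 1.78% called lower and 4.35% called higher. The member median was -0.03 and that of all genes 0.01, and 31 of 44 members (70.5%) moved by less than 0.3, as did 72.2% of all genes. An unadjusted p under 0.05 was reached by 6 members (background 18.3%), and 3 members were higher and 6 lower in 4 of 4 pairs (backgrounds 12.4% and 13.0%). Rab CPM summed over the members ran from 2481 to 2648 in the KMNTC total RNA libraries and from 2173 to 2584 in KM4A2cr, and the ranges overlapped. By pair that sum was lower in KM4A2cr except in replicate 4. Summed TPM was 2150, 2584, 2144 and 1670 in KMNTC and 1735, 2278, 1812 and 1345 in KM4A2cr. It was lower in every pair, though the ranges overlapped. In RPFs the sums ran from 1312 to 1597 CPM and from 1390 to 1874 CPM, and overlapped too, with pairs that went both ways. None of these sums was tested. All values are relative to the other mRNAs of a library, and since these are bulk cultures, fewer cells that carry an mRNA and less of it per cell cannot be told apart.

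**Figure D2:**
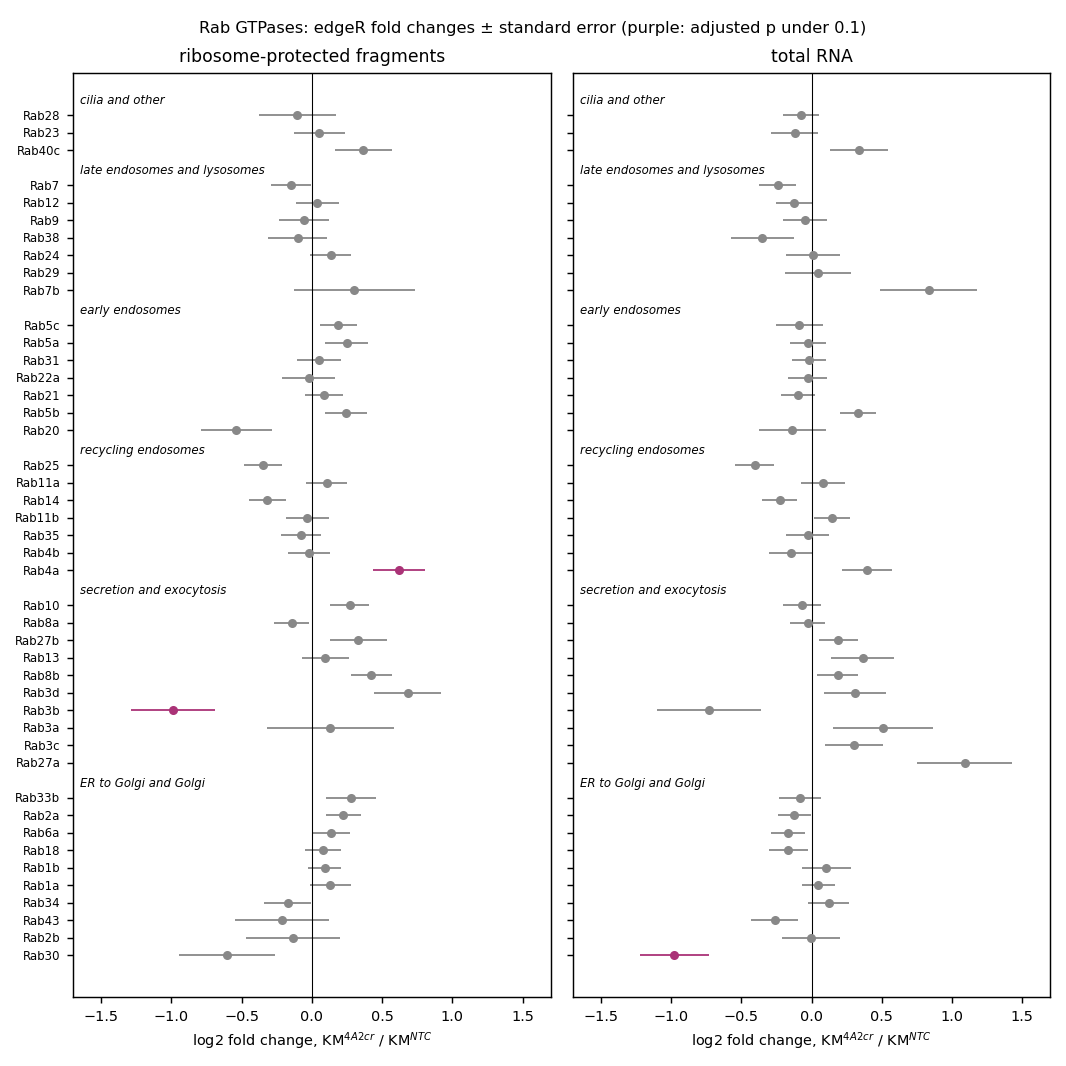
Log2 fold change of KM4A2cr against KMNTC for each tested Rab gene in RPFs (left) and total RNA (right), grouped by role, with points for the edgeR estimate and bars of 1 standard error. Rab4a and Rab3b in RPFs and Rab30 in total RNA, in purple, have an adjusted p under 0.1, and most other points lie within 0.3 of 0.

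Among the members of recycling endosomes, which send receptors back to the surface, Rab4a stood at the top. Rab4a (ENSMUSG00000019478.18, chromosome 8) had RPFs of 5.07, 3.47, 3.29 and 6.08 CPM in KMNTC replicates 1 to 4 and of 8.21, 5.04, 6.17 and 7.54 CPM in KM4A2cr. Each KM4A2cr library was above its own pair, while the ranges of the lines overlapped. The log2 fold change was 0.62 (SE 0.19, adjusted p = 0.0941 by edgeR), from 325 RPF counts over 8 libraries. Total RNA of Rab4a was 6.17, 6.66, 5.95 and 8.05 CPM in KMNTC and 7.36, 7.51, 7.95 and 13.6 CPM in KM4A2cr. All 4 pairs were higher, and the log2 difference of 0.39 (SE 0.18) did not pass (adjusted p = 0.271 by edgeR). Its paralogue Rab4b, which held most of the Rab4 mRNA, had log2 fold changes of -0.02 in RPFs and -0.14 in total RNA.

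Rab25 and Rab14 of the same group had lower values in KM4A2cr that did not pass. Rab25, a Rab11 relative found in epithelia, had RPFs of 67.8, 79.6, 87.7 and 74.5 CPM in KMNTC and 55.7, 59.2, 57.0 and 71.9 CPM in KM4A2cr (log2 fold change -0.35, SE 0.13, adjusted p = 0.161 by edgeR). Total RNA of Rab25 was 67.7, 77.7, 65.4 and 69.2 CPM in KMNTC and 48.4, 49.1, 47.9 and 69.1 CPM in KM4A2cr (log2 fold change -0.40, SE 0.14, adjusted p = 0.153 by edgeR). In both kinds of library replicates 1 to 3 were lower in KM4A2cr, and replicate 4 was nearly level.

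Rab14, which works between the Golgi and endosomes, had RPFs of 112, 108, 76.2 and 121 CPM in KMNTC and 79.5, 83.3, 76.0 and 92.1 CPM in KM4A2cr (log2 fold change -0.32, SE 0.13, adjusted p = 0.184 by edgeR). It lies on chromosome 2, where the median RPF change over 833 tested genes was -0.21 and the median total RNA change over 900 genes was -0.17, the lowest of all chromosomes. Rab14 had -0.23 in total RNA. The other member there, Rab22a of early endosomes, had -0.02 in RPFs and -0.03 in total RNA. The part of the chromosome in the Rab14 values was not tested.

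Rab11a, the main switch of slow recycling, had RPFs of 73.6, 119, 82.9 and 103 CPM in KMNTC and 68.1, 109.7, 90.6 and 149 CPM in KM4A2cr. Its pairs went both ways and the lines overlapped, with log2 fold changes of 0.10 (SE 0.15) in RPFs and 0.08 (SE 0.16) in total RNA. Rab11b and Rab35, which also serve recycling, had RPF values of -0.03 and -0.08 on the same scale.

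The secretory members, which carry granules and Golgi vesicles to the plasma membrane, spread most widely. Rab3b, a switch of regulated secretion (ENSMUSG00000003411.11, chromosome 4), had RPFs of 6.79, 3.47, 2.60 and 4.41 CPM in KMNTC and 2.54, 3.08, 0.701 and 2.42 CPM in KM4A2cr. All 4 pairs were lower, and the log2 fold change was -0.99 (SE 0.30, adjusted p = 0.0953 by edgeR), from 210 RPF counts. Its total RNA was 3.37, 2.88, 2.70 and 2.68 CPM in KMNTC and 3.11, 1.27, 0.379 and 2.77 CPM in KM4A2cr. Replicates 2 and 3 fell well below their pairs and replicates 1 and 4 did not, so the log2 value of -0.73 had an SE of 0.37 (adjusted p = 0.335 by edgeR).

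Rab3d and Rab8b had positive values that did not pass. Rab3d, a relative of Rab3b, had RPFs of 1.36, 2.88, 2.05 and 3.57 CPM in KMNTC and 1.45, 5.29, 3.51 and 6.19 CPM in KM4A2cr (log2 fold change 0.68, SE 0.24, adjusted p = 0.132 by edgeR). Rab8b, which serves the route from the Golgi to the plasma membrane, had 16.7, 18.3, 11.5 and 23.9 CPM in KMNTC and 19.3, 26.0, 19.5 and 28 CPM in KM4A2cr (log2 fold change 0.42, SE 0.15, adjusted p = 0.128 by edgeR). Both were higher in 4 of 4 pairs. Rab8a, the more abundant Rab8 mRNA with 75.3% of the pair's TPM in KMNTC, had an RPF log2 fold change of -0.14 (SE 0.12).

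The largest total RNA estimate of any member was that of Rab27a, which docks granules for release. It had 0.701, 1.44, 0.811 and 1.92 CPM in KMNTC and 1.80, 2.16, 0.947 and 6.91 CPM in KM4A2cr (log2 fold change 1.09, SE 0.34, adjusted p = 0.118 by edgeR), from 100 counts in all. The highest value, in KM4A2cr replicate 4, was more than 3 times any other in that line. Rab27a made up 7.07% of the Rab27 TPM in KMNTC, and its paralogue Rab27b had log2 fold changes of 0.33 in RPFs and 0.19 in total RNA, neither of which passed.

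In the group of the ER and the Golgi, total RNA of 1 member fell and the RPFs of none passed. Rab30, a Golgi member (ENSMUSG00000030643.15, chromosome 7), had total RNA of 4.49, 7.82, 8.52 and 5.37 CPM in KMNTC and 3.27, 3.94, 2.46 and 3.46 CPM in KM4A2cr. The lines did not overlap, and the log2 fold change was -0.98 (SE 0.25, adjusted p = 0.0627 by edgeR). RPFs of Rab30 were 1.2, 2.58, 1.37 and 1.47 CPM in KMNTC and 1.21, 1.48, 0.842 and 0.539 CPM in KM4A2cr, lower in 3 of 4 pairs (log2 fold change -0.61, SE 0.34, adjusted p = 0.322 by edgeR). Those RPF values rest on 86 counts in all.

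The other 9 tested members of that group, among them Rab1a, Rab1b, Rab2a, Rab6a and Rab33b, lay between -0.21 and 0.28 in RPFs on the log2 scale. In RPFs 0 of the 10 tested passed by edgeR, 0 had an unadjusted p under 0.05, and DESeq2 called 0 members of the family. Over all genes edgeR called 10.3% and found an unadjusted p under 0.05 for 23.4%, and 10 genes are too few to tell the group from all genes. Rab33b had the most mRNA of the group, and its RPFs were 10.6, 9.43, 5.62 and 13.0 CPM in KMNTC and 9.54, 10.9, 7.44 and 21.3 CPM in KM4A2cr (log2 fold change 0.28, SE 0.18).

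**Figure D3:**
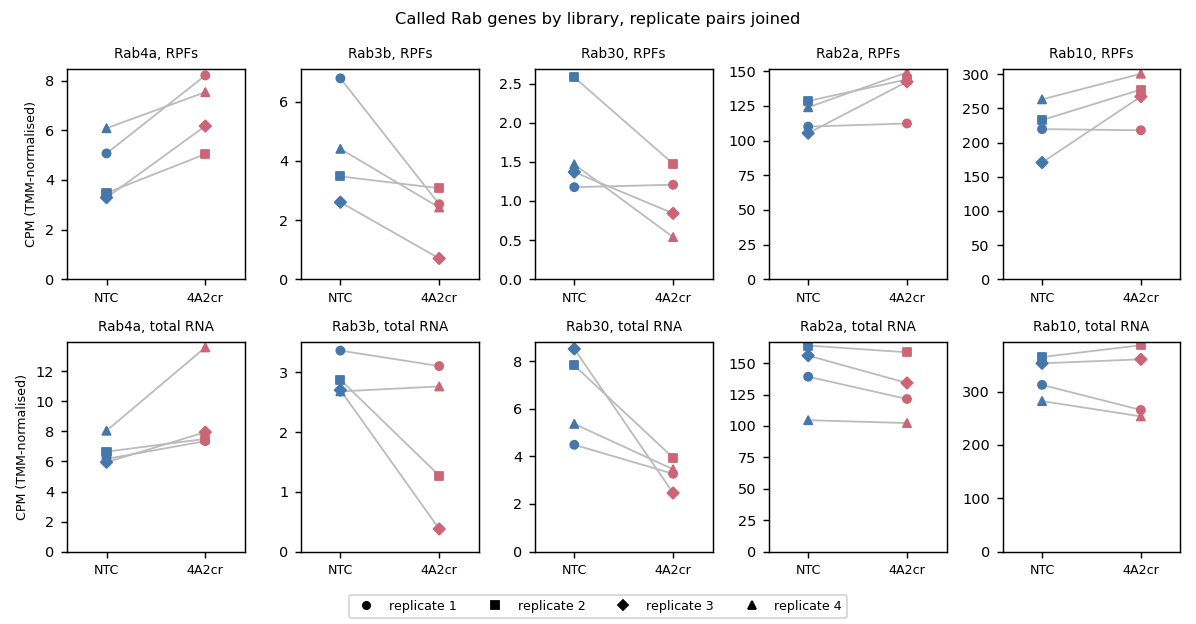
TMM-normalised CPM (axes from 0) of the 5 Rab genes with a call, in RPFs (top) and total RNA (bottom), with KMNTC in blue, KM4A2cr in red, 1 marker shape per replicate and the pairs joined. RPFs of Rab4a rise and those of Rab3b fall in all 4 pairs, and total RNA of Rab30 falls in all 4 without overlap of the lines.

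Early endosomes receive newly internalised cargo, and no member of that group passed in RPFs or total RNA. RPF log2 fold changes of its 7 tested members ran from -0.54 for Rab20, a member of endosomes and phagosomes, to 0.25 for Rab5a. By edgeR 0 of 7 had an unadjusted p under 0.05 in RPFs and 1 of 7 in total RNA, against 23.4% and 18.3% of all genes. The 1 in total RNA was Rab5b, with total RNA of 39.6, 43.9, 41.8 and 50.4 CPM in KMNTC and 44.8, 52.7, 50.4 and 76.8 CPM in KM4A2cr, higher in 4 of 4 pairs (log2 fold change 0.33, SE 0.13, adjusted p = 0.202 by edgeR). RPFs of Rab20 were 4.8, 4.07, 3.97 and 5.66 CPM in KMNTC and 2.17, 2.46, 3.09 and 6.19 CPM in KM4A2cr (log2 fold change -0.54, SE 0.25, adjusted p = 0.234 by edgeR). Replicates 1 to 3 of Rab20 were lower in KM4A2cr and replicate 4 was higher.

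Among members of late endosomes and lysosomes no call was made. RPF values of the 6 tested lay between -0.15 and 0.30, and by edgeR 0 reached an unadjusted p under 0.05, where 23.4% of all genes did. Rab7, the most abundant Rab mRNA, had total RNA of 338, 261, 235 and 219 CPM in KMNTC and 243, 219, 209 and 211 CPM in KM4A2cr. All 4 pairs were lower, and the log2 value of -0.24 (SE 0.13) did not pass (adjusted p = 0.376 by edgeR). RPFs of Rab7 were 114, 103, 94.4 and 66.3 CPM in KMNTC and 85.3, 94.3, 77.7 and 78.9 CPM in KM4A2cr, lower in 3 of 4 pairs (log2 fold change -0.15, SE 0.14). Rab7b, a paralogue of endosome-to-Golgi traffic, had total RNA of 3.37, 1.80, 2.03 and 8.81 CPM in KMNTC and 5.89, 7.89, 3.60 and 6.91 CPM in KM4A2cr. Its first 3 pairs were higher and the fourth was lower (log2 fold change 0.84, SE 0.35, adjusted p = 0.233 by edgeR).

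The members of cilia and other roles gave no call. Rab28 of photoreceptor cilia had RPF and total RNA log2 fold changes of -0.10 (SE 0.28) and -0.08 (SE 0.13), and Rab23, a regulator of Hedgehog signalling, had 0.05 and -0.12. Rab40c, which joins a ubiquitin ligase, had 0.36 (SE 0.20, adjusted p = 0.318 by edgeR) and 0.34 (SE 0.21).

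Translational efficiency, the change in RPFs over and above the change in total RNA of the same lysates, was the readout in which 2 of the abundant members passed. Tested as 1 interaction term over all 16 libraries, it was higher in KM4A2cr for Rab2a and Rab10, 2 of 41 tested members, against a background of 2.87% of 9989 genes in either direction and 1.87% higher. The member median was 0.07 and that of all genes -0.02. Above 0 lay 28 of 41 members (68.3%), against 47.4% of all genes, a difference that was not tested. Values under 0.3 in size were found for 32 of 41 members (78.0%) and 81.6% of all genes. An unadjusted p under 0.05 was reached by 6 members (background 14.1%). Of the members 4 were higher and 3 lower in 4 of 4 pairs (backgrounds 10.5% and 11.3%).

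Rab2a (ENSMUSG00000047187.10, chromosome 4) had RPFs of 110.1, 129, 105 and 124 CPM in KMNTC and 112, 144, 142 and 149 CPM in KM4A2cr. Its total RNA was 139, 164, 156 and 105 CPM in KMNTC and 122, 159, 134 and 102 CPM in KM4A2cr. RPFs were higher and total RNA lower in each of the 4 pairs, by amounts that passed in neither kind of library alone (log2 fold changes 0.22, SE 0.13, and -0.12, SE 0.12). The difference between them was 0.35 on the log2 scale (SE 0.10, adjusted p = 0.0900 by edgeR), with pair values of 0.23, 0.21, 0.65 and 0.30.

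Rab10 (ENSMUSG00000020671.10, chromosome 12) showed the same size of difference. Its RPFs were 219.7, 233, 171 and 263 CPM in KMNTC and 218, 278, 267 and 301 CPM in KM4A2cr, and its total RNA 313, 365, 353 and 282 CPM and 266, 387, 361 and 254 CPM. The change in translational efficiency was 0.34 (SE 0.10, adjusted p = 0.0900 by edgeR), with pair values of 0.22, 0.17, 0.62 and 0.35. For both genes the third replicate gave the largest pair value.

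Next to these stood Rab6a, Rab5c and Rab5a, which did not pass. Rab6a, which acts within the Golgi and on vesicles leaving it, had a change of 0.30 (SE 0.10, adjusted p = 0.148 by edgeR) and was higher in 4 of 4 pairs. Its RPFs were 75.3, 78.1, 60.9 and 74.1 CPM in KMNTC and 68.8, 81.3, 82.2 and 85.1 CPM in KM4A2cr, and its total RNA 146, 152, 141 and 149 CPM and 112, 151, 131 and 132 CPM. As with Rab2a, its total RNA was lower in each pair. Rab5c and Rab5a had 0.29 (SE 0.11, adjusted p = 0.229 by edgeR) and 0.27 (SE 0.11, adjusted p = 0.246 by edgeR), each higher in 3 of 4 pairs, and Rab5b had -0.09 (SE 0.12). Rab5c had RPFs of 59.0, 47.7, 47.0 and 61.1 CPM in KMNTC and 59.1, 48.6, 57.9 and 82.7 CPM in KM4A2cr. Total RNA of Rab5c was 80.8, 80.0, 74.4 and 73.0 CPM and 58.2, 68.6, 64.2 and 108 CPM, lower in the first 3 pairs and higher in the fourth. The 4 lowest were Rab7b at -0.55 (SE 0.39), Rab3a, of regulated secretion, at -0.50 (SE 0.52), Rab20 at -0.39 (SE 0.32) and Rab34, of the Golgi and primary cilia, at -0.29 (SE 0.16).

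**Figure D4:**
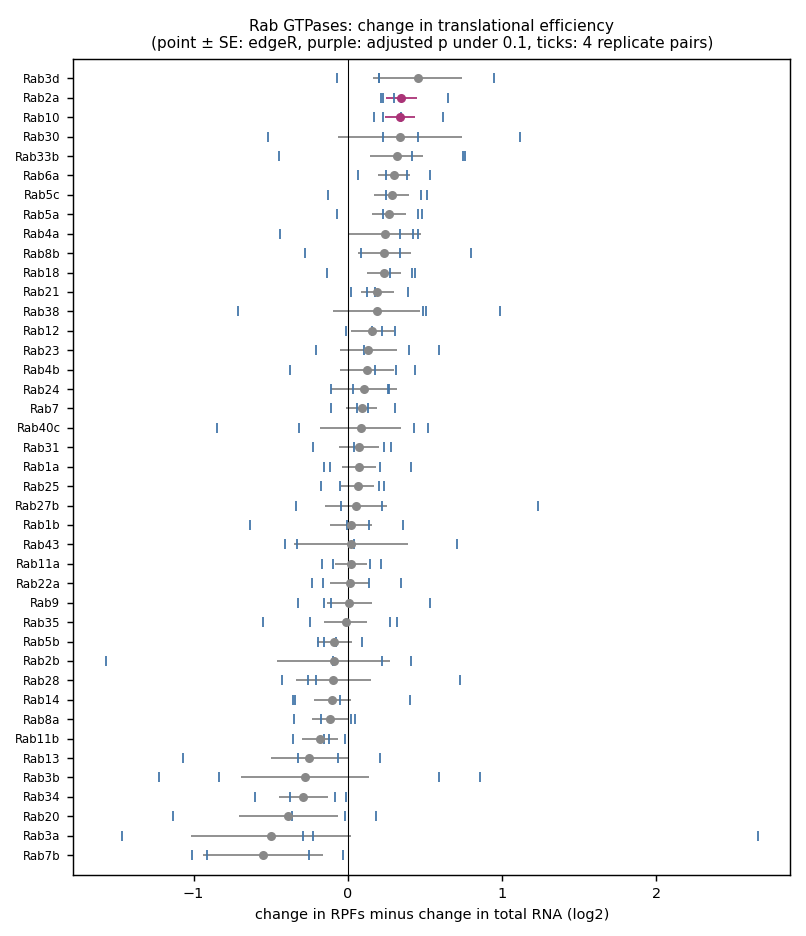
Change in translational efficiency (log2, RPF change minus total RNA change, KM4A2cr against KMNTC) for the 41 tested Rab genes, with points and bars for the edgeR estimate and 1 standard error and ticks for the 4 replicate pairs. Rab2a (0.35) and Rab10 (0.34), in purple, have an adjusted p under 0.1 and all 4 ticks above 0.

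With 1 replicate left out the called changes kept their direction, and the number of calls moved both among the members and among all genes. Without replicates 1, 2 and 3 in turn, RPFs of Rab4a differed by 0.59, 0.65 and 0.57 on the log2 scale and those of Rab3b by -0.77, -1.35 and -0.80. Total RNA of Rab30 differed by -1.14, -0.97 and -0.73, and translational efficiency of Rab2a by 0.39, 0.40 and 0.28 and of Rab10 by 0.38, 0.40 and 0.28. None of these values passed, and edgeR then called 0 members in each readout. Over all genes it called 2.27%, 1.20% and 0.310% in RPFs without replicates 1, 2 and 3, 1.91%, 1.30% and 0.577% in total RNA, and 0.151%, 0.191% and 0.159% in translational efficiency. Without replicate 4 it called 9 of 42 members in RPFs (background 33.4%), 6 of 43 in total RNA (background 29.8%) and 4 of 41 in translational efficiency (background 7.94%). The RPF calls were Rab4a, Rab10, Rab3c and Rab8b, higher, and Rab3b, Rab25, Rab14, Rab20 and Rab7, lower. In total RNA they were Rab7b, higher, and Rab3b, Rab25, Rab5c, Rab30 and Rab7, lower. Rab3c, with 65 RPF counts in all, was too scarce for the RPF test with all 4 replicates. In replicates 1 to 3 its RPFs were at most 1.09 CPM in KMNTC and at most 1.57 CPM in KM4A2cr. Each of these KM4A2cr libraries was above every KMNTC one. Its entry past the filter thus leaned on the line where it was higher, so the RPF call of Rab3c adds no support.

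Without replicate 4, RPFs of Rab25 fell by 0.44 on the log2 scale (SE 0.11, adjusted p = 0.0104 by edgeR). Total RNA of Rab25 fell by 0.55 (SE 0.11, adjusted p = 0.000620 by edgeR) and that of Rab7 by 0.31 (SE 0.10, adjusted p = 0.0212 by edgeR). Rab7b total RNA then rose by 1.34 (SE 0.28, adjusted p = 0.00129 by edgeR). Translational efficiency of Rab5c, Rab10, Rab6a and Rab2a rose by 0.42, 0.35, 0.29 and 0.37. A call that changed without replicate 4 was among the reasons for naming Rab25, Rab7, Rab7b, Rab5c and Rab6a, so their values here add no support. In replicate 4 itself, Rab25 total RNA was level between the lines, Rab5c was 73.0 CPM in KMNTC and 108 CPM in KM4A2cr, and Rab7b was 8.81 and 6.91 CPM. Members' pair medians in RPFs were -0.03, 0.02, 0.19 and 0.20 for replicates 1 to 4, in total RNA -0.12, -0.00, -0.04 and 0.07, and in translational efficiency 0.15, 0.03, 0.26 and -0.02. Medians of all genes stayed between -0.06 and 0.02 in each pair and readout.

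The counts moved with the settings as well. With no replicate block, edgeR called 0 members in each of the 3 readouts and 0.00% of all genes. DESeq2 with the replicate as a term called 0 members in RPFs (background 9.31%), 0 in total RNA (background 5.41%) and 1, Rab10, in translational efficiency (background 3.11%). At an adjusted p of 0.05 edgeR called 0 members in all 3 readouts, against 4.26%, 2.95% and 0.751% of all genes. Scaled by library size only, edgeR called 0 members higher and 3 lower in RPFs (background 15.7%), namely Rab3b, Rab25 and Rab14, and RPFs of Rab4a then had an adjusted p of 0.148 by edgeR. That scaling gave 2 members called in total RNA, both lower (background 10.4%), and 0 in translational efficiency (background 1.33%).

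The proteins that load, unload and escort Rab GTPases, or act for them, were followed through a list of 160 genes, of which 156 were matched. In RPFs 7 of 133 tested (5.26%) passed by edgeR, 2 higher and 5 lower, in total RNA 8 of 138 (5.80%), 5 higher and 3 lower, and in translational efficiency 6 of 131 (4.58%), all 6 higher. The backgrounds are the 10.3%, 6.13% and 2.87% given above. Scaled by library size only, the list gave 2 genes higher and 13 lower in RPFs and 1 higher and 11 lower in total RNA (backgrounds 15.7% and 10.4%). With upper-quartile factors, for which the share of all genes was not taken, it gave 3 higher and 4 lower in total RNA. The list median was -0.02 in RPFs, -0.01 in total RNA and 0.00 in translational efficiency.

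In RPFs 1 of 28 exchange factors passed, Gapvd1 of Rab5, at -0.52 (SE 0.12), and 1 of 14 TRAPP subunits, which activate Rab1 and Rab11, namely Trappc2l at -0.45 (SE 0.14). Gapvd1 lies on chromosome 2, whose genes had the lower median given above. Of 33 GTPase-activating proteins 1 passed, Tbc1d9 at -0.80 (SE 0.18), and its total RNA fell too, by 0.91 on the log2 scale (SE 0.17, adjusted p = 0.0197 by edgeR). Of 45 effectors 3 passed. They were Plekhm1, which binds Rab7 on lysosomes, at -0.48 (SE 0.14), Kif20a, a kinesin of cytokinesis that binds Rab6, at -0.64 (SE 0.14), and Tmf1, a Golgi coiled-coil protein that binds Rab6, at 0.57 (SE 0.13, adjusted p = 0.0389 by edgeR). Of the 7 escort and prenylation genes Rabac1, which binds prenylated Rabs, rose by 0.53 (SE 0.14, adjusted p = 0.0633 by edgeR) in RPFs and by 0.44 (SE 0.12, adjusted p = 0.0897 by edgeR) in total RNA. All 7 of these genes moved one way in 4 of 4 pairs, which adds no support, since a fit to these same pairs picked them.

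**Figure D5:**
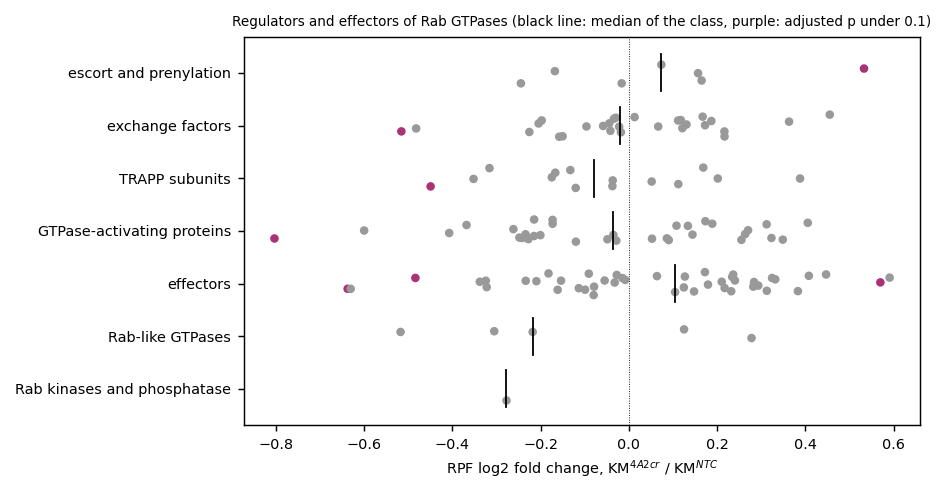
RPF log2 fold change of KM4A2cr against KMNTC for the 133 tested regulators and effectors of Rab GTPases, 1 point per gene, by class, with a black line at the class median. The 7 genes with an adjusted p under 0.1, in purple, run from -0.80 (Tbc1d9) to 0.57 (Tmf1), and class medians with more than 5 genes lie between -0.08 and 0.10.

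In total RNA the other genes called, named after their values were seen, were Rin2 and Tbc1d13, both on chromosome 2 and lower (-0.50, SE 0.14, and -0.45, SE 0.13), and the effectors Appl2 (0.60, SE 0.14), Rims2 (0.61, SE 0.15), Micall1 (0.50, SE 0.14) and Ehbp1l1 (0.51, SE 0.13), all higher. In translational efficiency, likewise named from their values, Tmf1 had the smallest adjusted p of the list (0.52, SE 0.10, adjusted p = 0.0143 by edgeR). The Golgi coiled-coil proteins Golga5 and Uso1, both partners of Rab1, rose by 0.48 (SE 0.11) and 0.32 (SE 0.09). The GTPase-activating proteins Tbc1d10b and Tbc1d13 both rose by 0.57 (SE 0.15 and 0.17), and Ccz1, a subunit of the Rab7 exchange factor, by 0.45 (SE 0.12). For each of these 6 genes all 4 pairs were higher, which their choice by a fit to these same pairs favours. With no replicate block edgeR called 0 of the list and 0.00% of all genes in RPFs and in total RNA. Without replicate 4 it called 27 of 134 in RPFs and 27 of 137 in total RNA, against 33.4% and 29.8% of all genes.

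RefSeq promoter windows, 250 bases before to 50 bases after the annotated start on GRCm38.p6, were on hand for 48 of the 59 members, as 60 windows of 300 bases. The letters CACGTG, the E-box bound by MYC and by the lysosomal factor TFEB, occurred in 6 of the 60 windows (10.0%) and in 7.15% of all 32817 windows. The longer GTCACGTGAC, which contains CACGTG and reads the same on both strands, occurred in 3 member windows (5.0%) and in 0.326% of all. These 3 are shown with the motif in capitals and 10 bases on either side, 5′ to 3′ on the gene's strand.
Rab5a, chr17:53479127-53479156, plus strand: acccggggatGTCACGTGACttcggccccg
Rab21, chr10:115315604-115315633, minus strand: gcccaccgcgGTCACGTGACgaggggtgtg
Rab24, chr13:55321961-55321990, minus strand: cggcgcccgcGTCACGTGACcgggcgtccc
Counted with the first base of the annotated start as 0, the motif runs from -97 to -88 in Rab5a, from -32 to -23 in Rab21 and from 0 to 9 in Rab24. Rab5a serves early endosomes, Rab21 the endocytosis of integrins and Rab24 autophagy. Their total RNA log2 fold changes were -0.03, -0.10 and 0.01 and did not pass. The match describes letters in a window and says nothing of binding in these cells.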

How the data were processed

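RPFs and total cytoplasmic RNA were measured in 4 libraries per cell line and kind. Per transcript, the authors deposited RPF counts, which are whole numbers, after Cutadapt 1.18, removal of ribosomal and transfer RNA, BBmap alignment to the most abundant GENCODE vM27 transcript of each gene, and UMI-tools 1.0.1, with the ends of the coding sequence left out. For total RNA they deposited RSEM 1.3.3 expected counts and TPM per isoform, after Bowtie2 2.3.5.1. The deposited TPM was summed per gene and used for levels and paralogue shares, since coding lengths for footprints per codon were not used here.

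The isoform tables gave the gene of each RPF transcript, and a transcript that a library did not list was set to 0. Expected counts were summed over isoforms and rounded. Tests were edgeR 4.0.16 quasi-likelihood fits (glmQLFTest, R 4.3.3) after filterByExpr (minimum count 10) and TMM scaling, with cell line and replicate as terms and Benjamini-Hochberg adjustment over all genes tested (threshold 0.1). For translational efficiency the tested term was the cell line by kind interaction in a fit of all 16 libraries, with lysate and replicate within kind as terms. SE is the size of the log2 fold change divided by the square root of F, and pair values used a prior count of 2. Alternatives were DESeq2 1.42.0, other scalings and filters, single replicates left out, no replicate block, and the RPF isoform alone for total RNA. The scripts were tested on simulated data.

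By the series' design text the replicates of a line are separate experiments, each plated and harvested on its own day, and it does not state that a number marks 1 day in both lines. The replicate block rests on the numbers in the sample titles and on the data, since same-numbered libraries deviated together from their group means (r across genes 0.58 to 0.78 in RPFs over 10291 genes, 0.61 to 0.76 in total RNA over 10880 genes, which are not independent). Depth limits scarce members, since genes just past the filter carry about 10 counts per library. Counts cover each library's own composition, so a change of all mRNAs together leaves no trace.

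The members, the role groups and the list of regulators and effectors were chosen with earlier results of these data known. Named were Eif4a2, every member called, per role group the member with the highest TPM and that with the smallest RPF p, members on a chromosome whose genes moved together, members whose call changed without 1 replicate, and list genes called in RPFs. Others were named after their values were seen. Chromosomes came from RefSeq (GRCm38.p6), and 4 of the 160 listed regulators and effectors (Dennd2b, Tbc1d10a, Sytl3 and Sytl5) were not matched. Paralogues share sequence, so reads split between near-identical copies are uncertain. Part of the genotype that both lines share is not reported here.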

Additional observations from a re-analysis of the deposited data

Results flagged for a closer look

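In 70 groups of 4 libraries of the named Rab members, 1 library was far from the other 3 by Dixon's test in 2 groups. Some of these members were named because a call changed without replicate 4, so no share by chance can be set beside the 2 groups. Other members were outside these groups. Among them, Rab34 total RNA in KM4A2cr stood at 34.8 CPM in replicate 4, against 18.6 to 19.6 CPM in replicates 1 to 3. Both flagged groups were total RNA of KM4A2cr replicate 4. Rab25 stood there at 69.1 CPM, against 47.9 to 49.1 CPM in replicates 1 to 3. Rab4a stood at 13.6 CPM, against 7.36 to 7.95 CPM. Eif4a2, which was not in these groups, was also highest in replicate 4 in both cell lines. Its RPFs stood there at 389 CPM in KMNTC, against 97.7 to 122 CPM in the other replicates. In KM4A2cr they stood at 346 CPM, against 51.0 to 88.4 CPM. Its total RNA stood at 524 CPM against 220 to 254 CPM in KMNTC, and at 467 CPM against 183 to 242 CPM in KM4A2cr. What sets that replicate apart was not tested.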

How the results depend on the processing

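Every count of called members depended on the settings. Members called in RPFs (2) numbered 0 with no replicate block, 0 by DESeq2, 1 with upper-quartile factors (lower), 3 with library size only (all lower), 1 with at least 10 counts in every library, 0 at an adjusted p of 0.05, and 0 to 9 with 1 replicate left out. Those called in total RNA (1) numbered 0 with no replicate block, 0 by DESeq2, 2 with library size only, 4 with no filter, 0 with the RPF isoform alone, 0 at 0.05, and 0 to 6 with 1 replicate left out. Those called in translational efficiency (2) numbered 0 with no replicate block, 1 by DESeq2 (which left many members without an adjusted p), 0 with library size only, 0 at 0.05, and 0 to 4 with 1 replicate left out. Listed regulators and effectors called in RPFs (7) numbered 0 with no replicate block, 15 with library size only (2 higher, 13 lower), 4 at 0.05 and 0 to 27 with 1 replicate left out. In total RNA (8) they numbered 0 with no replicate block, 3 by DESeq2, 12 with library size only (1 higher, 11 lower), 12 with no filter (7 higher, 5 lower), 4 with the RPF isoform alone, 1 at 0.05 and 0 to 27 with 1 replicate left out. Each highest value came without replicate 4. Shares of all genes for no replicate block, DESeq2, library size only, the stricter threshold and replicates left out are given above. They were not taken for upper-quartile factors, the other filters and the RPF isoform alone. The counts under those settings therefore cannot be read against all genes. The causes were not tested.

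Library size only moved the median of all genes to -0.14 in RPFs and -0.15 in total RNA, and the member medians to -0.052 and -0.18. With 1 replicate left out the member medians lay between 0.06 and 0.11 in RPFs and, in total RNA, between -0.08 and 0.04, the last without replicate 1. Some values near 0 turned positive. With no replicate block Rab22a was 0.026 in RPFs and 0.0053 in total RNA. With 1 replicate left out, RPF values lay between -0.17 and 0.18 for Rab22a (0.05 without replicate 2) and between -0.36 and 0.12 for Rab28. Total RNA values lay between -0.14 and 0.10 for Rab22a, between -0.21 and 0.010 for Rab33b and between -0.31 and 0.041 for Rab5c. No called Rab member changed direction under any alternative run. Listed regulators and effectors were followed by their counts alone, in RPFs and total RNA.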
